A study of Caenorhabditis elegans with 4 samples.

Results

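Ligand-gated ion channels open a pore in the cell membrane when a transmitter binds to them. In Caenorhabditis elegans most belong to the Cys-loop superfamily, whose members assemble from subunits around a central pore, and the rest are relatives of the AMPA, kainate and NMDA glutamate receptors. Acetylcholine, GABA and glutamate act through these channels at the neuromuscular junctions of the body wall, the pharynx and the gut, and several channels are targets of the anthelmintic drugs levamisole, ivermectin and monepantel.

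The genes described here were chosen by name from the counting tables: every acr, lgc, glr, nmr, glc or avr gene with a number, and unc-29, unc-38, unc-63, lev-1, lev-8, unc-49, exp-1 and eat-2. This gave 98 genes of 46881 listed, all of them protein-coding, and 27 of them lie on chromosome X. By name they form 27 genes of the nicotinic type, 53 lgc genes, 10 ionotropic glutamate receptor genes, 6 glutamate-gated chloride channel genes and 2 GABA receptor genes. Wild-type hermaphrodites of the Bristol N2 strain, 3 days old, were kept for 1 day on mNGM plates with Escherichia coli OP50, the usual laboratory food, or with the Bacillus subtilis natto strain MI-OMU01. Poly(A) RNA from about 200 worms in each group was sequenced in 2 libraries per diet. Whether the libraries of a diet came from separate cultures is not given in the labels, and the p-values therefore rest on a spread between libraries that may be purely technical.

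The libraries held 16962082 to 24381952 counted reads, of which the channel genes took between 0.0563% and 0.0681%. Levels are in CPM, read counts scaled with TMM factors to a common library size, and a count of 3 reads, the most that a count of 0 allows, was 0.118 to 0.184 CPM. Such floors cover counting error only. Of the 98 channel genes 83 held enough reads to be tested. The other 15 were all lgc genes with no more than 18 reads in any library, and lgc-15, lgc-17, lgc-24 and lgc-48 had no read on OP50 and at most 2 reads in a MI-OMU01 library. Whole worms were sequenced, so fewer cells of a type and less RNA per cell cannot be told apart.

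On MI-OMU01 the ivermectin target glc-1 rose about 4-fold, together with the glutamate-gated chloride channel genes avr-15 and glc-2, while the lgc genes with the highest levels per length in OP50-fed worms, lgc-27, lgc-22 and lgc-21, fell by 2.34-fold to 3.51-fold. In edgeR's quasi-likelihood test at an adjusted p of 0.05, 13 of the 83 tested channel genes changed, 5 higher and 8 lower on MI-OMU01. Over all 14967 genes tested the share called was 29.7%, with 14.6% higher and 15.2% lower, against 15.7% of the channel genes (6.02% higher and 9.64% lower). Their median log2 fold change was 0.23, against 0.03 over all genes tested. The median of the channel genes was -0.0059 without MI-OMU01 replicate 2, and -0.058 for those left by a filter at 5 CPM.

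Leaving out OP50 replicate 1 gave 3 higher and 9 lower channel genes (all genes 11.7% and 16.4%), and leaving out OP50 replicate 2 gave 13 and 7 (14.7% and 14.6%). Leaving out MI-OMU01 replicate 1 gave 3 and 5 (10.6% and 9.77%), and leaving out MI-OMU01 replicate 2 gave 3 and 6 (8.26% and 10.9%). DESeq2 called 3 higher and 7 lower (all genes 10% and 13.4%) and limma-voom 5 and 8 (14.3% and 15.1%). Scaling by total counts gave 9 and 5 (21.4% and 11.4%), and the filter at 5 CPM gave 3 and 7 (16.1% and 16.7%).

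**Figure D1:**
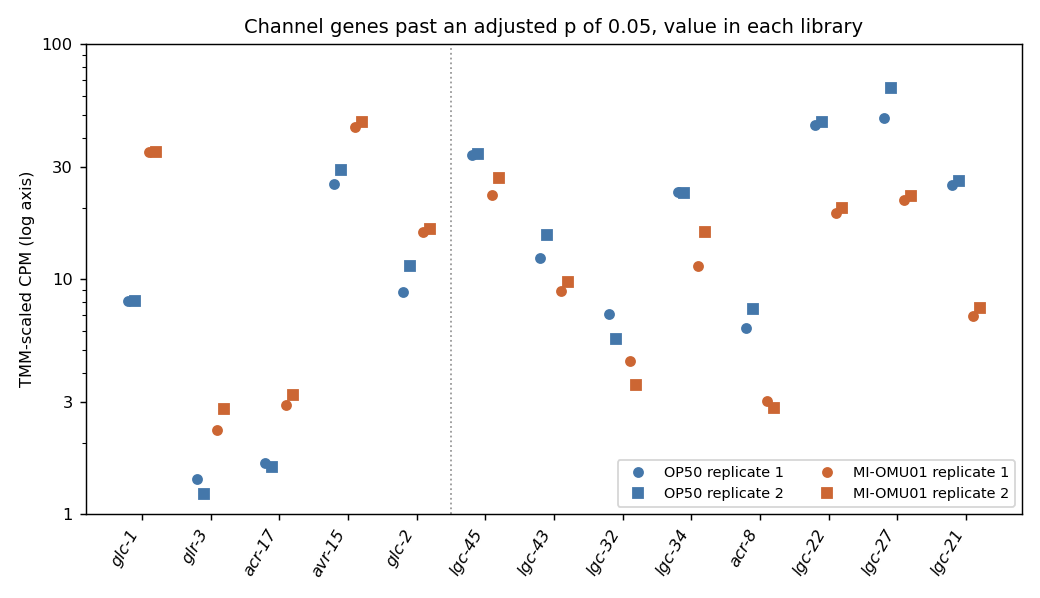
Level of the 13 channel genes past an adjusted p of 0.05 in each of the 4 libraries, in TMM-scaled CPM on a log axis, with OP50 in blue and MI-OMU01 in orange and the marker shape giving the replicate. The 5 genes left of the dotted line were higher on MI-OMU01 and the 8 to its right were lower. The 2 diets overlap in none of them, nor in 63.1% of all genes tested, and the 13 were chosen on these same libraries.

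Glutamate-gated chloride channels hyperpolarize neurons and muscle when glutamate binds, and ivermectin acts by opening them. The gene glc-1 (WBGene00001591, chromosome V, 16219541 to 16221948 in WBcel235) codes for an ivermectin-sensitive alpha subunit. It stood at 8.04 CPM in both OP50 libraries and at 34.7 CPM in both MI-OMU01 libraries. Every MI-OMU01 value lay far above every OP50 value, and within each diet the libraries differed by less than the worth of 1 read (SD 0.00162 and 0.0242 CPM). The rise was 4.31-fold (log2 fold change 2.11, SE 0.15, adjusted p = 2.60e-09, edgeR quasi-likelihood), and the gene was called under all 11 alternatives run, at log2 fold changes of 2.07 to 2.24.

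The gene avr-15 (WBGene00000233, chromosome V, 13498786 to 13511718) codes for the channel through which the M3 motor neurons act on pharyngeal muscle. It stood at 25.3 and 29.2 CPM on OP50 and at 44.3 and 46.6 CPM on MI-OMU01, so the diets did not overlap. Its log2 fold change was 0.74 (SE 0.13, adjusted p = 0.000197, edgeR quasi-likelihood), and it too was called under all 11 alternatives. Its exons share bases with those of gut-2 on the other strand, whose log2 fold change was -0.43. The beta subunit gene glc-2 (WBGene00001592, chromosome I, 4885062 to 4888002) stood at 8.77 and 11.3 CPM on OP50 and at 15.9 and 16.4 CPM on MI-OMU01. It rose 1.61-fold (log2 fold change 0.68, SE 0.17, adjusted p = 0.00520, edgeR quasi-likelihood; adjusted p = 0.0563 without OP50 replicate 1).

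The other members of the group did not pass the test. The subunit gene avr-14, which acts in neurons outside the pharynx, stood at 12.7 and 13.1 CPM on OP50 and at 11.5 and 15.6 CPM on MI-OMU01, with a log2 fold change of 0.08 and a 95% interval from -0.29 to 0.45. For glc-4 the interval ran from -0.14 to 0.61, and for glc-3 from -0.06 to 1.03. All 6 genes had positive log2 fold changes, 3 were called higher (50%, against 14.6% of all genes tested) and none lower, with 2 called higher without OP50 replicate 1. At an unadjusted p under 0.05 in edgeR, as after adjustment, 3 of the 6 genes passed, where 5796 of all 14967 genes tested did.

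Measured per length, the order of the group changed at glc-1. On OP50 the level per kb of gene model was 10.8 ± 1.07 CPM per kb (SD, n = 2) for avr-15, 7.91 ± 1.56 for glc-4, 6.74 ± 1.21 for glc-2, 5.74 ± 0.124 for avr-14, 4.8 for glc-1 and 1.77 ± 0.381 for glc-3. The libraries of glc-4 and glc-2 overlapped there, so these neighbours could not be ranked. On MI-OMU01 glc-1 led at 20.7 CPM per kb, ahead of avr-15 at 18 ± 0.621, glc-2 at 10.8 ± 0.239 and glc-4 at 9.27 ± 1.46 (SD, n = 2), and no libraries of neighbours in that order overlapped. In reads, glc-1 held 11.6% (exact binomial 95% interval 9.75% to 13.6%) and 9.90% (8.35% to 11.6%) of the group's reads in the OP50 libraries. In the MI-OMU01 libraries it held 27.8% (25.9% to 29.6%) and 25.4% (23.98% to 26.9%). These intervals cover counting error only, and the shares do not depend on how libraries were scaled against each other.

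**Figure D2:**
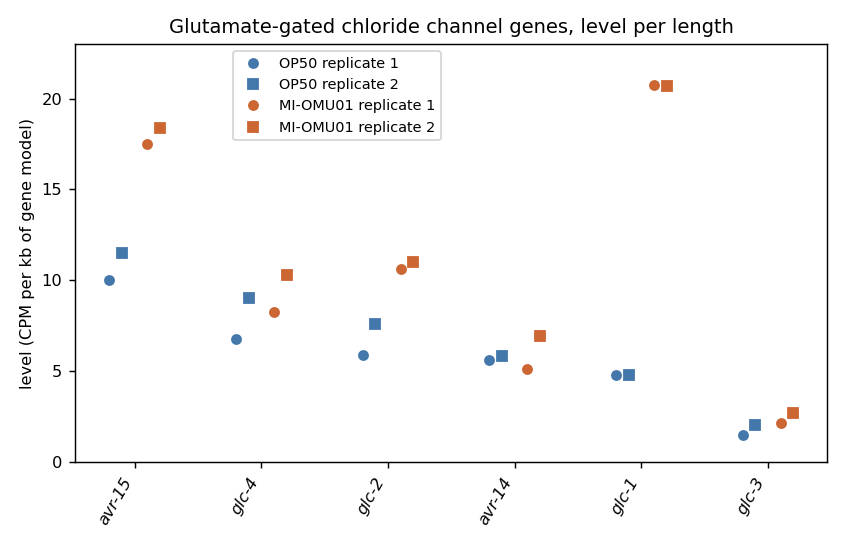
Level of the 6 glutamate-gated chloride channel genes in CPM per kb of gene model in each library, ordered by their OP50 level, with OP50 in blue and MI-OMU01 in orange. The gene glc-1 goes from the fifth place on OP50 (4.8) to the highest level of the group on MI-OMU01 (20.7).

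The summed level of the group was 69.6 and 81.2 CPM on OP50 and 125 and 136 CPM on MI-OMU01, a ratio of 1.73, and 1.43 with glc-1 left out. The diets did not overlap, but with 2 libraries per diet an exact two-sided permutation test cannot reach the threshold. Pharyngeal muscle marker genes moved the same way as avr-15 and glc-2. All 6 had positive log2 fold changes, and 3 of the 6 were called higher and none lower. Over all genes tested 14.6% were called higher and 15.2% lower. The summed level of the markers was 3124 and 3935 CPM on OP50 and 4194 and 4830 CPM on MI-OMU01. The median log2 fold change of those markers was 0.33, against 0.58 for the chloride channel group. The part of pharyngeal content in the result was not tested.

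The lgc genes are a broad set of Cys-loop channels whose transmitters range from acetylcholine and GABA to biogenic amines. Of 38 tested lgc genes 7 fell and none rose, against 15.2% lower and 14.6% higher over all genes tested, and 18.4% of the lgc genes. At an unadjusted p under 0.05, 8 of the 38 passed, against 5796 of all 14967 genes tested. The eighth was lgc-42, at a log2 fold change of 1.04 (adjusted p = 0.0918 in edgeR). Scaled by total counts, 4 fell and 1 rose, and 4 also fell without MI-OMU01 replicate 1. Without OP50 replicate 2, 6 fell and 4 rose. In DESeq2 and limma-voom none rose.

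The steepest fall was that of lgc-21 (WBGene00007903, chromosome X, 14064313 to 14067984). It stood at 25.1 and 26.1 CPM on OP50 and at 6.99 and 7.54 CPM on MI-OMU01, a 3.51-fold fall (log2 fold change -1.81, SE 0.16, adjusted p = 4.18e-08, edgeR quasi-likelihood). The gene lgc-27 (WBGene00022283, chromosome II, 4649085 to 4653280), which had the highest level per length of all lgc genes on OP50, stood at 48.6 and 65.0 CPM there and at 21.8 and 22.6 CPM on MI-OMU01. The OP50 libraries of lgc-27 lay further apart than those of the other strongly changed genes, yet both stood above both MI-OMU01 libraries, and the fall was 2.56-fold (adjusted p = 4.52e-07, edgeR quasi-likelihood). The next in level, lgc-22 (WBGene00017483, chromosome IV, 4301308 to 4304437), went from 45.1 and 46.8 CPM to 19.2 and 20.1 CPM (2.34-fold, adjusted p = 4.94e-07, edgeR quasi-likelihood). All 3 of these genes were called under all 11 alternatives.

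Smaller falls were seen in lgc-34, lgc-45, lgc-43 and lgc-32. The gene lgc-34 (chromosome II, 526574 to 530374) stood at 23.4 and 23.1 CPM on OP50 and at 11.3 and 15.8 CPM on MI-OMU01 (log2 fold change -0.77, SE 0.17, adjusted p = 0.00146, edgeR quasi-likelihood; adjusted p = 0.0527 without MI-OMU01 replicate 1). For lgc-45 (chromosome II, 3557474 to 3567490) the values were 33.7 and 33.9 CPM on OP50 and 22.8 and 27 CPM on MI-OMU01. In both genes the OP50 libraries were close together (SD 0.207 and 0.127 CPM), the MI-OMU01 libraries lay further apart, and the diets did not overlap. The fall of lgc-45 was 1.36-fold (adjusted p = 0.0204, edgeR quasi-likelihood), and the call ended when MI-OMU01 replicate 1 was left out (adjusted p = 0.284) and when libraries were scaled by total counts (0.0963).

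The values of lgc-43 (chromosome IV, 10578667 to 10581786) were 12.3 and 15.5 CPM on OP50 and 8.89 and 9.75 CPM on MI-OMU01, with an adjusted p of 0.0199 in edgeR. That call ended when OP50 replicate 2 (adjusted p = 0.147), MI-OMU01 replicate 1 (0.139) or MI-OMU01 replicate 2 (0.0625) was left out, and under scaling by total counts (0.0615). The least abundant of the fallen lgc genes, lgc-32 (chromosome X, 673027 to 676484), went from 7.12 and 5.54 CPM to 4.50 and 3.54 CPM, with an adjusted p of 0.0419 in edgeR. Its call ended under 5 alternatives, which were DESeq2 (adjusted p = 0.113), leaving out OP50 replicate 1 (0.187) or MI-OMU01 replicate 2 (0.336), scaling by total counts (0.0907) and the filter at 5 CPM (0.0558). The fold changes of both genes were negative under all 11 alternatives.

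Because the abundant lgc genes fell, the sum and the median of the family differed in sign. The summed level was 315 and 364 CPM on OP50 and 229 and 267 CPM on MI-OMU01, a ratio of 0.731, while the median log2 fold change of the tested lgc genes was 0.18 and 22 of the 38 were above 0. Per kb, lgc-27, lgc-22 and lgc-21 held 17.4%, 16.5% and 8.85% of the family's level in OP50 replicate 1 and 20.1%, 14.9% and 8.0% in OP50 replicate 2. In the MI-OMU01 replicates those shares were 11%, 9.94% and 3.49%, and 9.83%, 8.97% and 3.25%.

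The direction of the abundant lgc genes was shared by most listed markers of body wall muscle and epidermis. Of 8 body wall muscle markers 6 were called lower and none higher, against 15.2% lower and 14.6% higher over all genes tested. The summed levels of these markers were 10271 and 12013 CPM on OP50 and 7430 and 8762 CPM on MI-OMU01. All 5 tested epidermis markers were lower, with sums of 1516 and 1724 CPM against 259 and 185 CPM, and the sixth, bli-1, stood at 0.306 CPM on OP50 and 0.0860 CPM on MI-OMU01. The body wall muscle markers myo-3 and tni-3 did not fall (log2 fold changes 0.10 and 0.08). Whether the RNA content of either tissue changed was not tested, nor was its part in the lgc result.

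No gene passed the test in the lists of GABA-gated channels (5 tested, unc-49 and exp-1 included), amine-gated channels (3) and acetylcholine-gated chloride channels (3), at an unadjusted p either. Without OP50 replicate 2, exp-1, lgc-53 of the amine-gated list and lgc-46 and lgc-47 of the acetylcholine-gated list were called, and without OP50 replicate 1 unc-49 was. Scaling by total counts also called lgc-47. The tyramine-gated chloride channel gene lgc-55 stood at 4.66 and 7.06 CPM on OP50 and at 6.61 and 7.86 CPM on MI-OMU01, and its log2 fold change of 0.31 had an interval from -0.17 to 0.79. The serotonin-gated channel gene lgc-50 stood at 9.51 and 14 CPM against 9.87 and 12.5 CPM (log2 fold change -0.07, interval -0.49 to 0.35). For lgc-35, whose channel is opened by GABA and excites cells, the values were 2.64 and 2.38 CPM on OP50 and 1.30 and 1.89 CPM on MI-OMU01. The diets did not overlap for lgc-35, but its adjusted p in edgeR was 0.164.

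**Figure D3:**
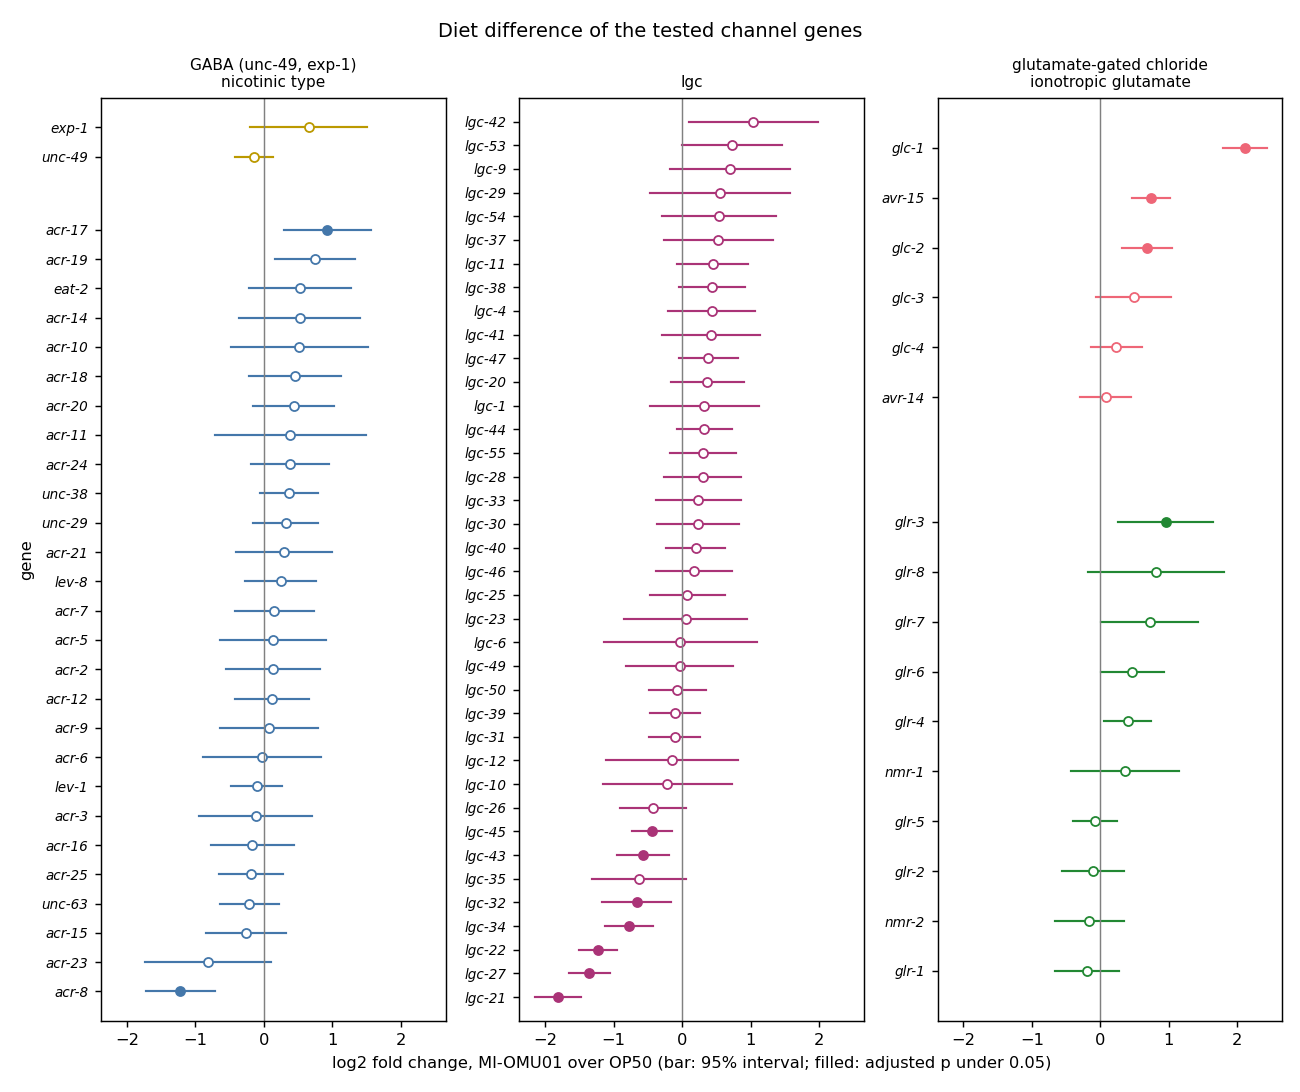
Log2 fold change of MI-OMU01 over OP50 for the 83 tested channel genes by family, with 95% intervals from the quasi-likelihood fit, and filled points for an adjusted p under 0.05. The filled points are glc-1, avr-15, glc-2, glr-3 and acr-17 on the right of 0 and acr-8 and 7 lgc genes on the left, and most other intervals cross 0.

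Nicotinic-type receptors carry acetylcholine signals to muscle and between neurons. Of 27 tested genes of this type, 1 rose and 1 fell, 7.41% against the 29.7% called over all genes. At an unadjusted p under 0.05 in edgeR 3 of them passed, against 5796 of all 14967 genes tested. The gene acr-8 (WBGene00000047, chromosome X, 10412725 to 10416630) belongs to a group with lev-8 and acr-12, and its relatives in parasitic nematodes take part in levamisole receptors. It stood at 6.20 and 7.43 CPM on OP50 and at 3.04 and 2.83 CPM on MI-OMU01. The fall was 2.33-fold (log2 fold change -1.22, SE 0.24, adjusted p = 0.000554, edgeR quasi-likelihood) and was called under all 11 alternatives. The gene lev-8 of the same group had an estimate of 0.24 on the log2 scale (interval -0.27 to 0.76) and acr-12 of 0.12 (interval -0.42 to 0.65).

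The gene acr-17 (WBGene00000056, chromosome V, 2608656 to 2615247), of the DEG-3 group, stood at 1.66 and 1.58 CPM on OP50 and at 2.93 and 3.22 CPM on MI-OMU01. Its reads numbered 27 and 26 on OP50 and 54 and 82 on MI-OMU01. The log2 fold change was 0.93 (adjusted p = 0.0255, edgeR quasi-likelihood), but the call ended without any 1 of the 4 libraries (adjusted p from 0.0658 to 0.177) and in DESeq2 (0.138). The neighbouring gene F53E10.1, which starts 543 bases away on the same strand, also rose (log2 fold change 0.76). F53E10.6 on its other side was not called (log2 fold change -0.25), nor were most tested neighbours of the called channel genes. An exception was slc-36.2, which lies 591 bases from lgc-34 on the same strand and was called lower as well (log2 fold change -0.55). For acr-23, the betaine receptor gene that monepantel targets, the values were 1.53 and 0.974 CPM on OP50 and 0.759 and 0.668 CPM on MI-OMU01 (log2 fold change -0.82, interval -1.74 to 0.11).

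The levamisole receptor of body wall muscle is built from UNC-29, UNC-38, UNC-63, LEV-1 and LEV-8. None of these 5 genes passed the test, nor did any at an unadjusted p under 0.05, and none was called in DESeq2 or limma-voom. The alpha subunit gene unc-38 stood at 6.07 and 6.88 CPM on OP50 and at 7.70 and 9.0 CPM on MI-OMU01, and the interval of its log2 fold change ran from -0.05 to 0.80. The non-alpha subunit gene unc-29 stood at 4.17 and 4.81 CPM against 5.47 and 5.70 CPM, with an interval from -0.16 to 0.79. Both MI-OMU01 values stood above both OP50 values for unc-38, unc-29 and lev-8 (4.11 and 3.35 against 4.66 and 4.2 CPM), and below them for unc-63. Such separation is common with 2 libraries per diet, and 33.2% of all genes tested stood higher in this way and 29.9% lower.

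The alpha subunit gene unc-63 stood at 8.22 and 6.88 CPM on OP50 and at 6.29 and 6.72 CPM on MI-OMU01 (interval -0.64 to 0.22). The most abundant nicotinic gene per length on OP50, lev-1, stood at 10.2 and 11.4 CPM against 9.76 and 10.3 CPM (interval -0.48 to 0.27). All 5 intervals lay within a 2-fold change in either direction. The sum over these subunit genes was 32.8 and 33.4 CPM on OP50 and 33.9 and 36.0 CPM on MI-OMU01, while body wall muscle markers were mostly lower, as given above.

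The gene acr-16, which makes the nicotine-sensitive receptor of body wall muscle that does not respond to levamisole, stood at 2.45 and 3.17 CPM on OP50 and at 2.66 and 2.36 CPM on MI-OMU01 (interval -0.78 to 0.44). The motor neuron receptor genes acr-2 and acr-3 had log2 fold changes of 0.13 and -0.12 (adjusted p = 0.814 and 0.864 in edgeR). The gene eat-2, needed for fast pharyngeal pumping, had 18 and 45 reads in the OP50 libraries, 1.10 and 2.74 CPM, and stood at 2.49 and 3.03 CPM on MI-OMU01. Its OP50 libraries were so far apart that the log2 fold change was 1.32 without OP50 replicate 2 (adjusted p = 0.0103 in edgeR) and -0.02 without OP50 replicate 1, against 0.53 with all libraries (adjusted p = 0.300).

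Ionotropic glutamate receptors of the AMPA and kainate type carry fast excitation between neurons, and NMDA receptors add a slower, voltage-dependent current. Of 10 tested genes 1 rose and none fell, against 29.7% called over all genes. At an unadjusted p under 0.05 in edgeR 4 of the 10 passed, near the 5796 of all 14967 genes tested. The risen gene was glr-3 (WBGene00001614, chromosome I, 7117808 to 7121545), which is known for sensing cold. It had 23 and 20 reads on OP50 and 42 and 71 on MI-OMU01, or 1.41 and 1.22 against 2.28 and 2.79 CPM (log2 fold change 0.95, SE 0.33, adjusted p = 0.0366, edgeR quasi-likelihood). The call ended without any 1 of the 4 libraries (adjusted p from 0.0613 to 0.290) and in DESeq2 (0.180). The gene K10D3.6, 919 bases away on the other strand, rose more, by a log2 fold change of 1.6.

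The AMPA-type receptor gene glr-1 of the locomotion command interneurons stood at 5.64 and 6.46 CPM on OP50 and at 4.61 and 5.89 CPM on MI-OMU01 (interval -0.67 to 0.28). The NMDA-type genes nmr-1 and nmr-2 had intervals from -0.42 to 1.14 and from -0.67 to 0.35. The highest mean per length on OP50 was that of glr-5, at 6.52 ± 0.539 CPM per kb there and 6.14 ± 0.839 CPM per kb on MI-OMU01 (SD, n = 2). The next on OP50, glr-4, stood at 5.67 ± 1.12 there and at 7.46 ± 0.981 on MI-OMU01. The libraries of these neighbours overlapped on OP50. On MI-OMU01 the order was reversed, and both libraries of glr-4 stood above both of glr-5. The adjusted p of glr-4 was 0.0762 in edgeR, and 0.0135 when scaled by total counts, and that of glr-6 was 0.119 and 0.0313. Both were called without OP50 replicate 2 as well.

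Of the genes of the GABA receptors, unc-49 codes for the inhibitory receptor of body wall muscle and exp-1 for a GABA-gated cation channel that drives the enteric muscles during defecation. Neither passed the test, at an unadjusted p either, nor in DESeq2 or limma-voom. The most abundant channel gene in reads, unc-49, stood at 54.9 and 73.0 CPM on OP50 and at 54.3 and 61.3 CPM on MI-OMU01. Its diets overlapped, and the interval of its log2 fold change ran from -0.42 to 0.14. Without OP50 replicate 1 the adjusted p of unc-49 was 0.0126 (log2 fold change -0.37). The levels of exp-1 were 0.798 and 2.92 CPM on OP50 and 2.60 and 3.22 CPM on MI-OMU01. The low value of OP50 replicate 1 decides its fold change, which was 0.65 with all libraries, 1.87 without OP50 replicate 2 (adjusted p = 0.000364 in edgeR) and -0.03 without OP50 replicate 1.

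Among the 70 tested channel genes that did not pass, the interval of 44 lay within a 2-fold change in either direction and that of 8 within 1.5-fold. The intervals of the others reach past 2-fold, so a change of that size is not excluded for them. Both MI-OMU01 libraries stood above both OP50 libraries in 27 of the 83 tested genes and below them in 13, 32.5% and 15.7%, where 33.2% and 29.9% of all genes tested did so. The median level of the 98 genes on OP50 was 2.76 CPM.

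Set beside other genes on the same side of 10 CPM on OP50, the channel genes split by abundance. Of the 17 channel genes with an OP50 mean of 10 CPM or more, 8 were called (47.1%), 2 higher and 6 lower, and 32.1% of the other genes at that level were called, 11.4% higher and 20.6% lower. Of the 66 tested channel genes under 10 CPM, 5 were called (7.58%), 3 higher and 2 lower, against 26.9% of the other genes under 10 CPM (18.7% higher and 8.16% lower). Over all tested genes 32.1% were called at 10 CPM or more (11.4% higher and 20.7% lower) and 26.7% under it (18.6% higher and 8.11% lower). These differences between channel genes and other genes were not tested. The median log2 fold change was -0.10 for channel genes at 10 CPM or more and 0.31 under it, against -0.04 and 0.23 for the other genes. The median SE under 10 CPM was 0.30 for channel genes and 0.31 for other genes. At 10 CPM or more it was 0.167 and 0.126, and the highest OP50 means were 63.9 and 21170 CPM, so levels there were not alike. In narrower bins of under 1, 1 to 3 and 3 to 10 CPM, 0%, 7.41% and 10% of channel genes were called (9, 27 and 30 tested). Of the other genes in those bins 26.7%, 23.2% and 30% were called. With genes placed by their mean over the 4 libraries, 45.0% of 20 channel genes and 32.4% of the other genes were called at 10 CPM or more, and 6.35% of 63 channel genes and 26.4% of the other genes under it.

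**Figure D4:**
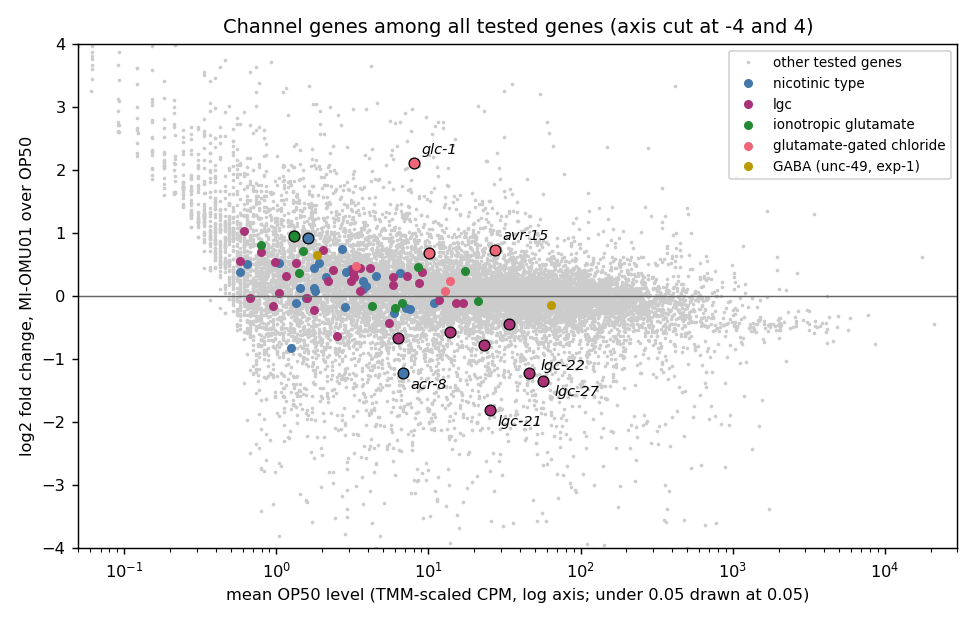
Log2 fold change of MI-OMU01 over OP50 against the mean OP50 level in CPM (log axis) for all tested genes, with other genes in grey, the channel genes in the colour of their family and black rims for an adjusted p under 0.05. The rimmed channel genes above 10 CPM are mainly lgc genes below 0, and the channel genes under 10 CPM have a median of 0.31.

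Of 14 tested genes for proteins that assemble and cluster these receptors, 1 rose and 2 fell, 21.4% called against 29.7%. The gene nra-4, whose product acts in the endoplasmic reticulum on the subunit makeup of levamisole receptors together with that of nra-2, stood at 204 and 187 CPM on OP50 and at 109 and 110 CPM on MI-OMU01. It fell 1.79-fold (adjusted p = 3.52e-06, edgeR quasi-likelihood). The fall of nra-2 was 1.33-fold (adjusted p = 0.00667 in edgeR), and its call ended when MI-OMU01 replicate 2 was left out (0.146) and under scaling by total counts (0.0606). The gene molo-1, which makes an auxiliary protein of the levamisole receptor, went from 4.85 and 6.15 CPM to 8.84 and 11.3 CPM (log2 fold change 0.88, adjusted p = 0.00354 in edgeR; 0.0871 without MI-OMU01 replicate 2). The chaperone gene ric-3 stood at 49.4 and 66.4 CPM against 61.5 and 67.4 CPM and did not pass.

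Of 9 tested genes for auxiliary proteins and traffic of glutamate receptors, 1 rose and none fell, 11.1% called against 29.7%. It was the scaffold gene magi-1 (log2 fold change 0.31, adjusted p = 0.0297 in edgeR). The call of magi-1 ended in DESeq2, with no filter, and when OP50 replicate 1 or any MI-OMU01 library was left out. Of 14 further Cys-loop channel genes 2 rose and none fell, 14.3% called against 29.7%. They were ggr-1 (2.52 and 3.41 CPM on OP50, 4.23 and 7.07 CPM on MI-OMU01) and ggr-3 (1.6 and 2.86 CPM against 4.61 and 3.97 CPM). Neither passed in DESeq2 or without OP50 replicate 1, and ggr-1 did not without MI-OMU01 replicate 2, nor ggr-3 without MI-OMU01 replicate 1.

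Markers of the neurons that carry many of these channels moved in part. Of 10 neuron markers 4 were called higher and none lower, against 14.6% higher and 15.2% lower over all genes tested, and these 4 were the neuropeptide-processing genes egl-3 and egl-21, the dense core vesicle gene ida-1 and ric-19. The pan-neuronal genes unc-119 and rab-3 had log2 fold changes of -0.0034 and 0.02. The summed neuron marker level was 1229 and 1533 CPM on OP50 and 1874 and 2081 CPM on MI-OMU01. Most of that sum and of its rise came from egl-3, egl-21 and ida-1, with means of 459, 376 and 335 CPM on OP50 and 714, 536 and 503 CPM on MI-OMU01. The 6 neuron markers not called had log2 fold changes from -0.0034 to 0.146. The nicotinic-type genes summed to 83.6 and 98.2 CPM on OP50 and 88.8 and 101 CPM on MI-OMU01, and the ionotropic glutamate receptor genes to 62.7 and 75.6 CPM against 73.4 and 82.9 CPM, so that the diets overlapped in both. In each of the 5 channel families the sum of replicate 1 stood below that of replicate 2, on OP50 and on MI-OMU01 alike. None of 8 oocyte and early embryo markers was called by edgeR, at an adjusted or unadjusted p, and their sum was 4457 and 3481 CPM on OP50 and 4178 and 3685 CPM on MI-OMU01. Intestine markers had 3 higher and 2 lower of 7, with sums of 5065 and 5555 CPM against 9844 and 10260 CPM. The rise of that sum came from asp-1, at 3217 and 3621 CPM on OP50 and 8319 and 8553 CPM on MI-OMU01. The lower markers were act-5 and pept-1 (log2 fold changes -0.63 and -1.40). Of 5 sperm markers 1 was higher (20%, against 14.6% of all genes tested), at sums of 7.24 and 5.97 CPM against 8.19 and 10.6 CPM. None of the listed markers was at 0, and their part in the channel results was not tested.

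**Figure D5:**
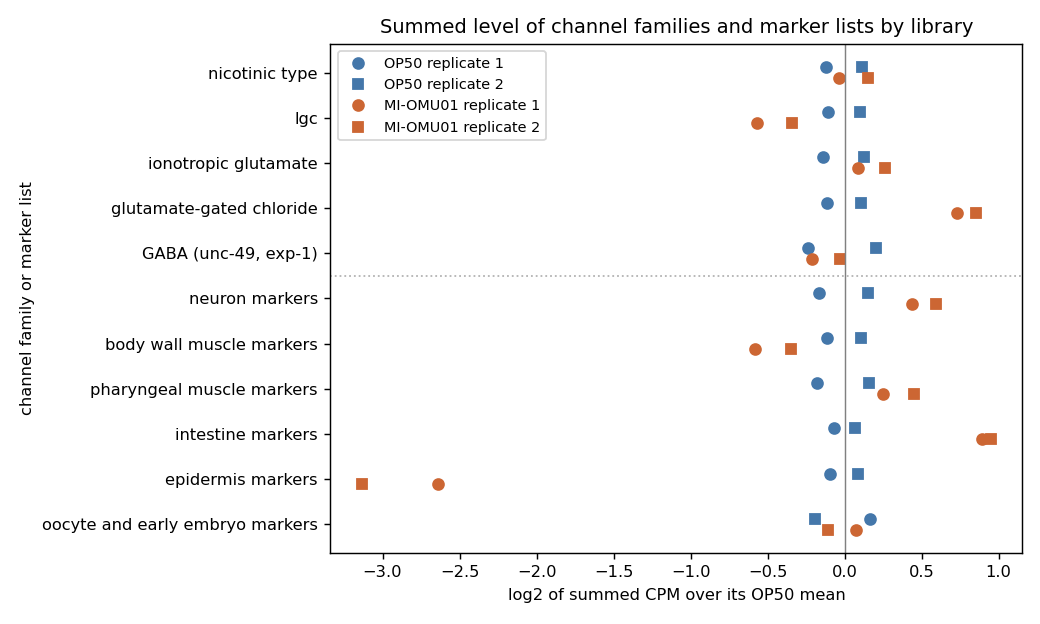
Log2 of the summed CPM of each channel family (above the dotted line) and of 6 marker lists (below it) in each library, relative to its OP50 mean, with OP50 in blue and MI-OMU01 in orange. The glutamate-gated chloride channels stand above OP50 in both MI-OMU01 libraries and the lgc genes below it, while the nicotinic, ionotropic glutamate and GABA sums overlap between diets.

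Of the 98 channel genes, 13 share exon bases with another listed gene that had at least 10 reads in all, in each case on the other strand. Among the called genes these were avr-15 with gut-2, lgc-27 with fut-6 and lgc-32 with T19D7.7. The fucosyltransferase-named gene fut-6 held 306 reads against 2837 for lgc-27, and T19D7.7, whose log2 fold change was 0.62, held 253 against 380 for lgc-32. Among the others the partner held more reads in some pairs, such as exp-1 with 191 reads and abts-3 with 3738, or acr-16 with 201 and F25G6.8 with 3318. The channel gene held more in others, such as lgc-44 with 628 reads and F46F3.3 with 94, acr-14 with 101 and T05C12.1 with 32, or nmr-1 with 127 and F07F6.1 with 11. The library kit keeps strand, but whether the counting used it is not stated in any label, so values of these genes are uncertain.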

How the data were processed

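Poly(A) RNA of 4 libraries, 2 per diet, was measured as whole-number read counts per gene, which the authors deposited without normalization. Per the submitters' processing notes, featureCounts 1.6.4, STAR 2.7.2b, cutadapt 2.7, Trimmomatic 0.39 and Trim Galore 0.6.5 were used with builds ce11 and WBcel235. Settings, strand use and the treatment of reads with several matches are not stated there, so reads of near-identical lgc genes may be split or lost. Gene coordinates and lengths are those of the deposited tables. Gene types came from the Ensembl annotation of WBcel235, which matched all 98 channel genes.

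Genes were filtered with filterByExpr (minimum count 10, minimum total 15), scaled by TMM (factors 0.948 to 1.05) and tested with edgeR 4.0.16 in R 4.3.3 by a robust quasi-likelihood model with diet as its only term. Benjamini-Hochberg adjustment ran over all 14967 genes tested, with a threshold of 0.05. The SE is the log2 fold change over the square root of F, and 95% intervals use it with the model's degrees of freedom. The biological coefficient of variation was 0.0965. Replicates differed beyond sampling noise (chi-square per gene 11.3 and 9.91). The script was tested on simulated data. Alternatives used DESeq2 1.42.0, limma-voom (limma 3.58.1), other scalings and filters, each library left out, and a replicate block.

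Named were all called channel genes, the 3 highest per length in each family on OP50, 22 fixed genes, and up to 3 called genes per direction in each of the 3 lists of related proteins (43 genes). Outside that rule, glc-3, lgc-42, lgc-46, lgc-47, lgc-53, acr-3, acr-14, lgc-44, ric-3, the untested lgc genes, neighbours, overlapping genes and markers were named after their values were seen. The listed names unc-74, nrap-1 and acr-22 had no match. The channel genes and all lists were chosen with earlier results of these data known.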

Additional observations from a re-analysis of the deposited data

How the results depend on the processing

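The calls of glc-1, avr-15, lgc-21, lgc-27, lgc-22 and acr-8 held under all 11 alternatives, and no called gene changed sign in any. The causes of the other shifts were not tested, beyond fewer genes or libraries where a filter or a left-out library removed them. With total counts as library sizes, which shifted the median over all genes from 0.03 to 0.16 (log2), 9 channel genes were higher and 5 lower (35.7% lower against 61.5%), by family 3 ionotropic glutamate, 2 nicotinic and 1 lgc gene higher and 4 lgc genes lower, with 5 further Cys-loop genes higher and 1 assembly gene lower. DESeq2 called 3 channel genes higher, with 0 ionotropic glutamate, 0 nicotinic, 0 auxiliary and 0 further Cys-loop genes higher. With the filter at 5 CPM, 3 channel genes were higher, 0 of them ionotropic glutamate or nicotinic, 0 further Cys-loop genes were higher, and the median log2 fold change of the channel genes was -0.058. With no filter, 0 auxiliary genes were higher.

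The replicate numbers are shared across diets by label only. With the number as a block, 5807 genes were called over all, 10 channel genes were higher (3 ionotropic glutamate, 2 nicotinic, 2 lgc), 4 assembly genes were lower and 4 further Cys-loop genes higher, and all 13 channel calls remained. The added channel calls were glr-4 (adjusted p = 0.00693), glr-6 (0.0262), acr-19, lgc-47 and lgc-53. Differences between replicates 1 and 2 correlated between diets at r = 0.211 over 14967 genes and at r = -0.00495 over the channel genes, and genes are not independent. The summed level of each channel family was nevertheless lower in replicate 1 than in replicate 2 on both diets.

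Leaving out 1 library gave 2935 to 4571 calls over all genes, 3 to 13 channel genes higher and 5 to 9 lower, and medians of -0.0059 to 0.33. By family, higher calls ran from 0 to 1 (GABA), 0 to 3 (ionotropic glutamate), 0 to 4 (lgc) and 0 to 2 (nicotinic), and lower calls from 0 to 1 (GABA), 4 to 6 (lgc) and 1 to 2 (nicotinic). In the related lists higher calls ran from 0 to 3 (assembly), 0 to 1 (auxiliary) and 0 to 3 (further Cys-loop), and lower calls from 1 to 4 (assembly) and 0 to 1 (auxiliary). Alternatives for the related lists and for family sums were chosen after seeing the data. With 1 library left out, the ratio of summed levels ran from 0.7785 to 1.09 for GABA and from 0.9409 to 1.136 for nicotinic genes. Both ranges cross a ratio of 1. It ran from 1.006 to 1.246 for ionotropic glutamate, from 1.565 to 1.877 for glutamate-gated chloride and from 0.6625 to 0.7881 for lgc genes.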
